A study of Sus scrofa domesticus with 4 samples.

Results

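The granins CHGA, CHGB and SCG2 and the small GTPases RAB3A, RAB27A and ARF1 were followed in the anterior pituitary of pregnant and cyclic pigs. Their probes were taken from the arrays by the RefSeq accession printed for each probe, without its version, whose gene symbol in the NCBI table of pig genes was 1 of these 6. This gave 22 of 43603 probes, where 5578 probes carried a gene name of this kind for 2459 genes. CHGB had 15 probes, SCG2 and RAB27A had 2 each, and CHGA, RAB3A and ARF1 had 1 each.

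The pregnant group held 4 mature Large White x Polish Landrace gilts, young female pigs of about 110 kg, that were naturally bred and killed on days 12 to 13 of pregnancy, with conceptuses present. The cyclic group held 4 gilts of the same cross and weight, killed on days 12 to 13 of the estrous cycle as judged from the ovaries. RNA of the anterior pituitary was labelled with the dyes Cy3 and Cy5, and 825 ng of each was put on an Agilent array, so that each of 4 arrays held 1 pregnant and 1 cyclic gilt. By the sample labels, which name 8 individuals, pregnant RNA was in Cy3 on arrays 1 and 3 and in Cy5 on arrays 2 and 4. The labelling protocol can be read as placing pregnant RNA in Cy3 on every array; directions here follow the sample labels, and the fitted ratios under the other reading are given beside them.

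Granins are acidic proteins that bind calcium, gather with prohormones in the Golgi apparatus and are stored with them in the dense-core granules of endocrine cells. RAB3A and RAB27A sit on the granule membrane and, through partner proteins, bring granules to the plasma membrane where their content is released on a stimulus. ARF1 recruits coat proteins to Golgi membranes, a step needed for vesicles to form, and is thus known for granule formation more than for release. In the anterior pituitary these genes serve cells that make growth hormone, prolactin, gonadotropins, thyrotropin and corticotropin, and gonadotropes are known for their content of CHGB and SCG2.

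The scanner called all 22 probes well above background in both channels on all 4 arrays. Over the arrays 47.5% to 67.9% of probes were above background in Cy3 and 60.7% to 71.8% in Cy5, and 0 probes were saturated. Array 4 had a dim area of 5139 spots, 11.7% of the array, and 1 CHGB spot lay in it. Of 11 markers of anterior pituitary endocrine cells 11 were measured, among them the hormone genes GH1, PRL, POMC, CGA, LHB, FSHB and TSHB, so the defining markers of the labelled tissue were present. With dyes as labelled, the ratios of pregnant over cyclic of any 2 arrays correlated at r between 0.02 and 0.45 across probes, which share arrays and are not independent replicates.

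Of the 22 probes 21 could be tested, and all 21 had a fitted log2 ratio of pregnant over cyclic below 0, from -0.64 to -0.06 with a median of -0.22. Among all 21627 tested probes 46.9% had a negative ratio, and among 1744 named genes, each represented by its brightest tested probe, 56.2% did. The difference did not pass the test for any of the 6 genes: 0 of 21 probes, and 0 of all tested probes (0%), had a limma p under 0.05 after Benjamini-Hochberg adjustment, the adjusted p of the member probes lying between 0.235 and 0.786. Before adjustment 8 of the 21 probes (38.1%) had a p under 0.05, all lower in pregnant gilts, of which 6 were CHGB probes and the others those of RAB3A and ARF1. The same held for 18.1% of all tested probes in either direction and for 7.62% in the direction of lower values in pregnant gilts. Counted by gene at the brightest probe, 2 of 6 had an unadjusted p under 0.05, both lower in pregnant gilts. Of named genes 13.8% did in either direction, 8.43% lower and 5.39% higher in pregnant gilts. In 0 of the 21 probes did the pregnant and cyclic gilts separate without overlap, where all 4 pregnant levels lay under all 4 cyclic levels in 1.04% of all probes. With 4 arrays an exact two-sided sign-flip test of a single probe cannot give a p under 0.125.

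The negative ratios depended on how the 2 dyes were balanced. With each array only centred on its median, in place of the intensity-dependent loess correction, 11 of 21 probes were negative. Among all probes with an unadjusted p under 0.05, 57.8% were higher in pregnant gilts with loess and 82.2% with median centring. With pregnant RNA taken to be in Cy3 on every array, 20 of 21 were negative. By construction this is also the count of member probes with lower mean ratios on arrays 1 and 3 than on arrays 2 and 4, and not a separate result. Of all tested probes 49.2% had lower ratios on arrays 1 and 3. Under that reading group and dye coincide on every array and cannot be told apart. In bulk tissue, fewer cells of a type and less RNA per cell cannot be told apart.

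**Figure D1:**
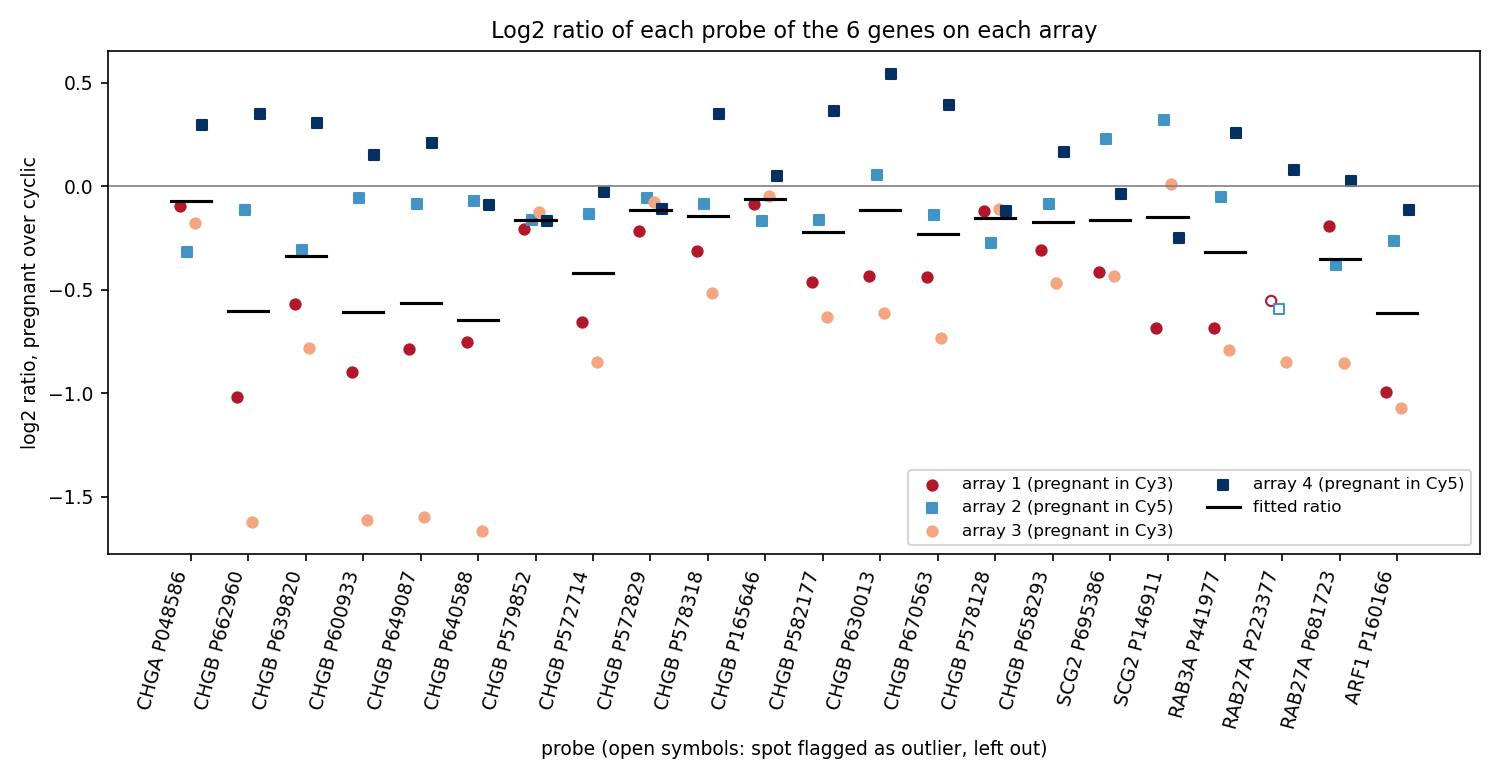
Log2 ratio of pregnant over cyclic (y axis) for each of the 22 probes (x axis) on each array, with circles for arrays with pregnant RNA in Cy3, squares for arrays with pregnant RNA in Cy5, open symbols for spots left out as outliers, and black lines for the fitted ratio. The 21 fitted ratios lie between -0.64 and -0.06, array 4 is mostly above 0, and the CHGB probes range down to -1.67 on array 3.

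Chromogranin A, a granin of most endocrine cells and the precursor of vasostatin and pancreastatin peptides, had the widest spread of levels between gilts of the 6 representative probes. The log2 level of CHGA (probe A_72_P048586, transcript NM_001164005) in pregnant gilts was 9.16, 8.63, 10.55 and 9.65 on arrays 1 to 4, against 9.26, 8.95, 10.73 and 9.35 in cyclic gilts. Both gilts of array 3 were the highest of their group, both gilts of array 2 the lowest, and the groups overlapped over most of their range. Levels averaged 9.50 ± 0.81 in pregnant gilts and 9.57 ± 0.79 in cyclic gilts (SD, n = 4 each). The within-array ratios were -0.09, -0.32, -0.18 and 0.30, negative on 3 of 4 arrays. The fitted ratio was -0.07 (SE 0.124, 95% interval -0.40 to 0.25, limma adjusted p = 0.786). It turned to 0.03 with median centring and to 0.08 without array 2, and was -0.06 with pregnant RNA in Cy3 on every array.

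Chromogranin B, a granin that promotes granule formation, was measured by more probes than any other member. Its brightest probe, A_72_P630013 (transcript NM_214081), read 16.82, 17.08, 16.74 and 17.45 in pregnant gilts, against 17.25, 17.02, 17.36 and 16.90 in cyclic gilts. The pregnant gilts of arrays 1 and 3 lay below every cyclic gilt, and the pregnant gilt of array 4 lay above every cyclic gilt. The means were 17.02 ± 0.32 in pregnant gilts and 17.13 ± 0.21 in cyclic gilts (SD, n = 4 each). The ratios were -0.43, 0.05, -0.61 and 0.54, with a fitted ratio of -0.11 (95% interval -0.41 to 0.18, limma adjusted p = 0.626). This value turned to 0.12 with median centring and to 0.01 without array 2, and was -0.41 with pregnant RNA in Cy3 on every array. As the mean of all 15 probes CHGB had ratios of -0.48, -0.12, -0.76 and 0.16 on arrays 1 to 4. Its fitted ratio was then -0.30 ± 0.40 (SD over arrays, limma unadjusted p = 0.0287, adjusted p = 0.249). The brightest probe was nearer 0 than the median of the 15 probes, -0.22, so counts by gene depend on this choice of probe.

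Secretogranin II is the precursor of secretoneurin and a granin of gonadotropes, and its brighter probe was negative on 2 of 4 arrays. The brighter of its 2 probes, A_72_P146911 (transcript NM_001012299), read 15.99, 16.61, 16.67 and 17.01 in pregnant gilts, against 16.68, 16.29, 16.66 and 17.26 in cyclic gilts. The ratios were -0.68, 0.32, 0.01 and -0.25, and the fitted ratio was -0.15 (95% interval -0.57 to 0.27, limma adjusted p = 0.654). The pregnant gilt was lower than its cyclic partner on arrays 1 and 4 and higher on array 2 and, by 0.01, on array 3. The other SCG2 probe, A_72_P695386, read 15.40, 15.63, 15.86 and 16.44 in pregnant gilts, against 15.81, 15.40, 16.29 and 16.48 in cyclic gilts. Its ratios were -0.41, 0.23, -0.43 and -0.04, and its fitted ratio was -0.16 (limma adjusted p = 0.370). The SCG2 probes thus differed most on array 3, where the value was near 0 at the brighter probe and negative at the other. The ratio of the brighter probe was 0.08 with median centring and 0.02 without array 1, and -0.19 with pregnant RNA in Cy3 on every array.

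RAB3A encodes the GTPase of secretory vesicles whose active form holds vesicles at release sites. RAB3A (probe A_72_P441977, transcript NM_001123179) read 7.99, 8.49, 8.38 and 9.23 in pregnant gilts, against 8.68, 8.55, 9.17 and 8.97 in cyclic gilts. The highest of all 8 gilts was the pregnant gilt of array 4, and the other pregnant gilts lay below every cyclic gilt. The means were 8.52 ± 0.52 in pregnant gilts and 8.84 ± 0.28 in cyclic gilts (SD, n = 4 each). The ratios were -0.68, -0.05, -0.79 and 0.26, with a fitted ratio of -0.32 (SE 0.091, 95% interval -0.55 to -0.08, limma unadjusted p = 0.0187, adjusted p = 0.238). Across 18 settings with the dyes as labelled the ratio ran from -0.44 to -0.21 and kept its sign. Several of these, such as no dye term, array weights or separate channels, change the p but cannot move the ratio of this probe. The limma unadjusted p was 0.154 without the dye term and 0.159 with median centring. With pregnant RNA in Cy3 on every array the ratio of RAB3A was -0.42 (limma unadjusted p = 0.0462, adjusted p = 0.848).

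RAB27A encodes the GTPase that tethers granules to actin and the plasma membrane through effectors such as melanophilin and the granuphilins. Its tested probe, A_72_P681723 (transcript NM_001032357), read 8.12, 8.44, 7.71 and 8.95 in pregnant gilts, against 8.31, 8.82, 8.56 and 8.92 in cyclic gilts. The pregnant gilt of array 3 was the lowest of the 8 and that of array 4 the highest, by a narrow margin over its cyclic partner. The means were 8.30 ± 0.52 in pregnant gilts and 8.65 ± 0.27 in cyclic gilts (SD, n = 4 each). The ratios were -0.19, -0.38, -0.86 and 0.03, and the fitted ratio was -0.35 (95% interval -0.73 to 0.03, limma adjusted p = 0.296). Without array 1 it was -0.52 with a limma adjusted p of 0.0443, a fit in which 3381 probes passed, and with pregnant RNA in Cy3 on every array it was -0.17. The other RAB27A probe, A_72_P223377, was not tested because its spots on arrays 1 and 2 were marked as outliers by the scan software. Its unmarked spots read 8.48 and 10.17 in the pregnant gilts of arrays 3 and 4, against 9.33 and 10.09 in the cyclic gilts, giving ratios of -0.85 and 0.08. The marked spots had ratios of -0.55 and -0.59, so that this probe and the tested probe were negative on arrays 1, 2 and 3 and slightly above 0 on array 4.

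ARF1 had the lowest ratio of the 6 genes and was the member whose representative probe was negative on every array. ARF1 (probe A_72_P160166, transcript NM_001160427) read 9.97, 11.09, 10.42 and 10.99 in pregnant gilts, against 10.96, 11.36, 11.50 and 11.10 in cyclic gilts. The pregnant gilts of arrays 2 and 4 lay just above the lowest cyclic gilt, that of array 1, so the groups overlapped. The means were 10.62 ± 0.52 in pregnant gilts and 11.23 ± 0.24 in cyclic gilts (SD, n = 4 each). The ratios were -0.99, -0.27, -1.07 and -0.11, all 4 negative, as in 12.9% of named genes. With pregnant RNA in Cy3 on every array those of arrays 2 and 4 would be 0.27 and 0.11, and ARF1 would not be negative on all 4. The fitted ratio was -0.61 (SE 0.080, 95% interval -0.82 to -0.40), or 1.53-fold less in pregnant gilts. Its limma p was 0.000716 before and 0.235 after adjustment. The ratio lay between -0.65 and -0.46 in 18 settings with the dyes as labelled, and was -0.42 with pregnant RNA in Cy3 on every array. As for RAB3A, several of the 18 settings change the p but cannot move the ratio. The limma unadjusted p was 0.0189 without the dye term and 0.0137 with median centring. ARF1 passed the test in 2 of the 18 settings. The limma adjusted p was 0.0177 without array 1 and 0.025 with the 8 channels fitted separately. In these fits 3381 and 1046 of all probes passed.

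**Figure D2:**
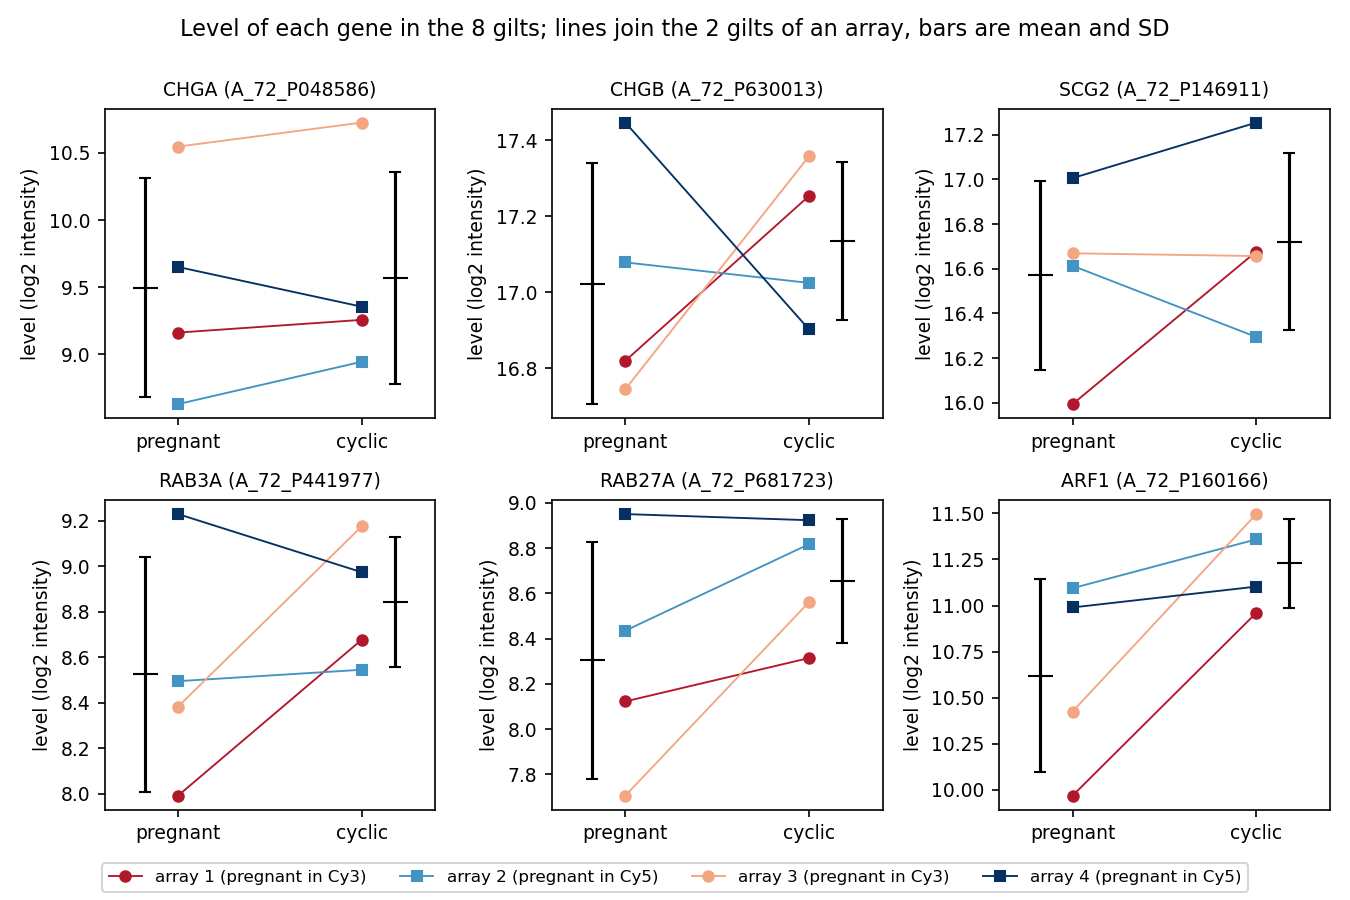
Log2 level (y axis) of the brightest tested probe of each gene in pregnant and cyclic gilts (x axis), with a line joining the 2 gilts of an array and bars for the mean and SD of each group. In all 6 panels the groups overlap; the lines of ARF1 all slope up towards the cyclic gilts, while the line of array 4 slopes down for CHGA, CHGB, RAB3A and, slightly, RAB27A.

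Most of the 6 genes had lower ratios on arrays 1 and 3 than on arrays 2 and 4, though not on every array. On arrays 1 and 3, with pregnant RNA in Cy3, the median ratio of the 6 genes was -0.56 and -0.70, and 6 and 5 of 6 were negative. On arrays 2 and 4, with pregnant RNA in Cy5, it was -0.16 and 0.14, and 4 and 2 of 6 were negative. Of all probes 51.0%, 46.6%, 47.2% and 46.1% were negative on arrays 1 to 4. With 6 genes, the counts on arrays 2 and 4 are too small to be set apart from these shares. By array, CHGA was lowest on array 2, RAB27A was lower on array 2 than on array 1, and SCG2, at its brighter probe, was lower on array 4 than on array 3. As the mean of its probes SCG2 was lower on array 3, at -0.21 against -0.14 on array 4. The mean ratio of ARF1 was -1.03 on arrays 1 and 3 and -0.19 on arrays 2 and 4. For RAB3A these means were -0.74 and 0.10, and for RAB27A they were -0.52 and -0.18. The mean ratio was lower on arrays 1 and 3 than on arrays 2 and 4 for 6 of 6 genes and for 20 of 21 tested probes. The same held for 58.1% of named genes and 49.2% of all tested probes, shares that are not matched for brightness. Most of the 21 probes are bright CHGB probes, and other probes as bright also had negative median ratios on arrays 1 and 3. The gilts of arrays 1 and 3 are other animals than those of arrays 2 and 4, so dye and animals cannot be told apart here. The fit removes a mean difference between the 2 dye orientations, and in part for this reason the SE of ARF1 or RAB3A was smaller than the SD over arrays would give.

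The 15 CHGB probes, which all match transcript NM_214081, differed among themselves on arrays 1 and 3. Each had a negative fitted ratio, from -0.64 to -0.06 with a median of -0.22, and limma adjusted p ran from 0.235 to 0.718. On array 1 all 15 were negative, between -1.02 and -0.09, with a median of -0.44. On array 3 all 15 were negative as well, between -1.67 and -0.05, with a median of -0.63. The arrays with pregnant RNA in Cy5 gave a narrower picture. On array 2 the probes lay between -0.31 and 0.05, with a median of -0.11 and 14 negative. On array 4 they lay between -0.17 and 0.54, with a median of 0.16 and 5 negative. The probes share their gilts, arrays and transcript and are not replicates.

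The lowest ratios belonged to 4 CHGB probes that were near 0 on array 2. A_72_P640588 had ratios of -0.75, -0.07, -1.67 and -0.09 on arrays 1 to 4. A_72_P662960 had ratios of -1.02, -0.11, -1.62 and 0.35. A_72_P600933 had ratios of -0.90, -0.06, -1.61 and 0.15. The fourth of them, A_72_P649087, gave -0.78, -0.09, -1.60 and 0.21. Their fitted ratios were -0.64, -0.60, -0.61 and -0.57 in this order, and these 4 passed the test both without array 1, as did 3381 of 21840 probes, and with separate channels, as did 1046 of 19880. The channel levels show the same: A_72_P662960 read 15.48, 16.47, 15.69 and 16.70 in pregnant gilts, against 16.50, 16.58, 17.31 and 16.35 in cyclic gilts. A_72_P640588 read 15.69, 16.24, 15.39 and 16.01 in pregnant gilts, against 16.44, 16.31, 17.06 and 16.10 in cyclic gilts. At both probes the cyclic gilt of array 3 was the highest of the 8.

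A middle group of CHGB probes had the same order of arrays with smaller ratios. A_72_P572714 had ratios of -0.66, -0.13, -0.85 and -0.03, and A_72_P639820 had -0.57, -0.31, -0.78 and 0.31. A_72_P670563 had -0.44, -0.14, -0.73 and 0.39, and A_72_P582177 had -0.46, -0.16, -0.63 and 0.37. A_72_P578318 gave -0.31, -0.08, -0.52 and 0.35, and A_72_P658293 gave -0.31, -0.08, -0.47 and 0.16. These 6 probes were negative on arrays 1, 2 and 3, and 5 of them were above 0 on array 4. Among them A_72_P572714 had a fitted ratio of -0.42 (limma unadjusted p = 0.00436) and A_72_P639820 of -0.34 (limma unadjusted p = 0.0484), while the other 4 had an unadjusted p above 0.05.

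The remaining CHGB probes, beside the brightest, were close to 0 on every array. A_72_P579852 had ratios of -0.21, -0.16, -0.12 and -0.17, and A_72_P572829 had -0.22, -0.06, -0.07 and -0.11. A_72_P578128 had -0.12, -0.27, -0.11 and -0.12, and A_72_P165646 had -0.09, -0.17, -0.05 and 0.05. The first 3 of these were negative on all 4 arrays with little spread, A_72_P579852 with an SD of 0.035. Its levels were 16.07, 16.21, 15.95 and 16.39 in pregnant gilts, against 16.28, 16.37, 16.07 and 16.55 in cyclic gilts. With A_72_P640588 and A_72_P572714, 5 CHGB probes were negative on all 4 arrays, and with ARF1 6 of 21 member probes, where 11.3% of all probes measured on 4 arrays were. With pregnant RNA in Cy3 on every array 1 of 21 member probes, the brightest CHGB probe, would be negative on all 4, against 8.40% of all probes. On array 3 the ratio of CHGB thus depended on the probe, from -0.05 at A_72_P165646 to -1.67 at A_72_P640588.

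The channel levels of the other CHGB probes are given for completeness, since each probe has its own scale. A_72_P600933 read 15.88, 16.77, 15.74 and 16.54 in pregnant gilts, against 16.78, 16.83, 17.36 and 16.39 in cyclic gilts. A_72_P649087 read 15.95, 16.43, 15.85 and 16.58 in pregnant gilts, against 16.73, 16.52, 17.45 and 16.37 in cyclic gilts. In these, as in the other probes of lowest ratio, the cyclic gilt of array 3 was the highest and the pregnant gilt of array 4 was above its partner at 3 of the 4 probes. A_72_P572714 read 15.94, 16.29, 16.37 and 15.53 in pregnant gilts, against 16.60, 16.42, 17.22 and 15.55 in cyclic gilts. A_72_P639820 read 15.25, 15.67, 15.10 and 15.92 in pregnant gilts, against 15.82, 15.98, 15.88 and 15.62 in cyclic gilts. A_72_P572714 thus had its lowest levels on array 4 in both groups, which A_72_P639820 did not have in pregnant gilts. A_72_P670563 read 16.43, 16.58, 16.22 and 16.93 in pregnant gilts, against 16.87, 16.71, 16.95 and 16.53 in cyclic gilts. A_72_P582177 read 16.05, 16.09, 16.07 and 16.62 in pregnant gilts, against 16.51, 16.25, 16.71 and 16.25 in cyclic gilts. At both, the pregnant gilts of arrays 1 and 3 lay below every cyclic gilt. A_72_P578318 read 16.64, 16.86, 16.61 and 17.05 in pregnant gilts, against 16.96, 16.94, 17.12 and 16.71 in cyclic gilts. A_72_P658293 read 16.71, 16.87, 16.65 and 17.33 in pregnant gilts, against 17.02, 16.95, 17.12 and 17.16 in cyclic gilts. The pregnant gilt of array 4 was the highest at A_72_P658293 and the cyclic gilt of array 3 the highest at A_72_P578318. At the probes near 0 on every array, A_72_P572829 read 16.30, 16.46, 16.31 and 15.43 in pregnant gilts, against 16.52, 16.52, 16.38 and 15.54 in cyclic gilts. A_72_P578128 read 16.30, 16.24, 15.88 and 16.59 in pregnant gilts, against 16.42, 16.51, 15.99 and 16.70 in cyclic gilts. A_72_P165646 read 16.10, 15.99, 15.99 and 16.53 in pregnant gilts, against 16.18, 16.16, 16.03 and 16.48 in cyclic gilts. At these 3 probes the 2 gilts of an array lay close together, and the groups overlapped at each of the 15 probes.

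**Figure D3:**
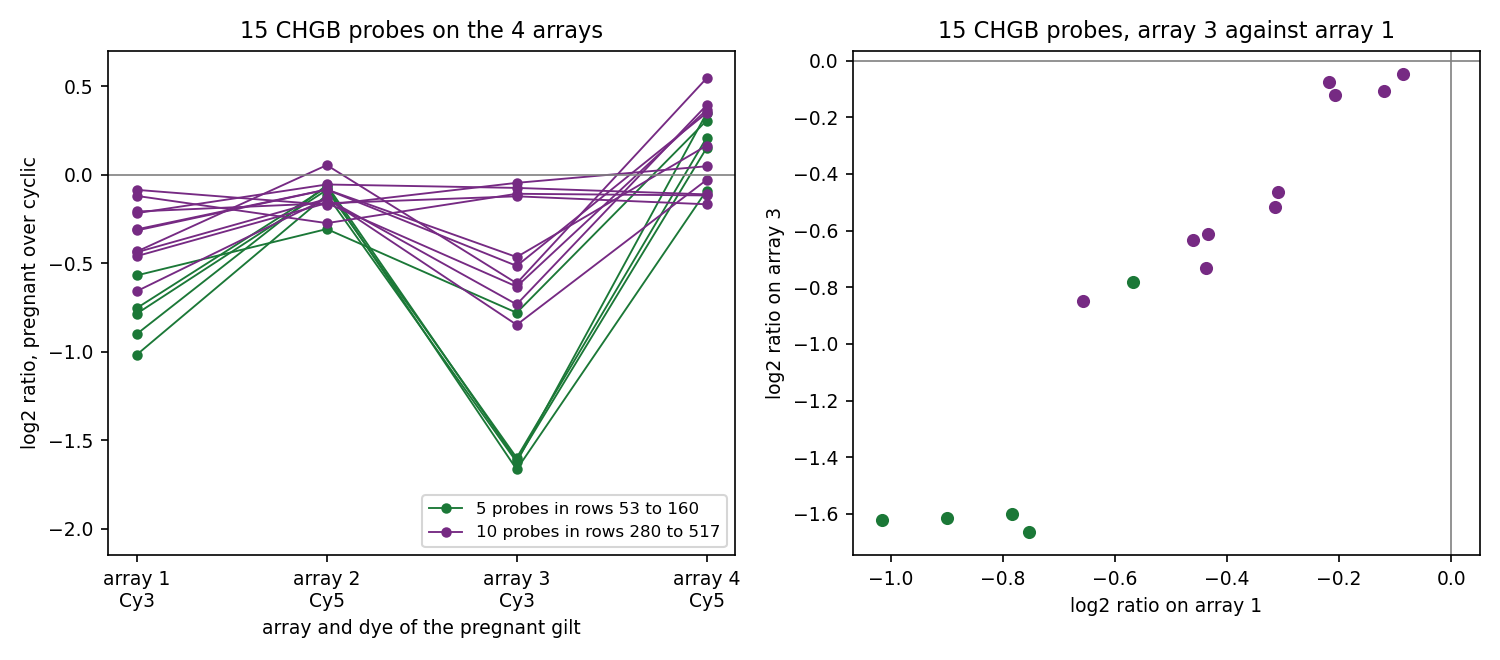
Left, log2 ratio (y axis) of the 15 CHGB probes on the 4 arrays (x axis), with a line for each probe; right, the same ratios on array 3 (y axis) against array 1 (x axis). Green marks 5 probes whose spots lie in rows 53 to 160 and purple 10 probes in rows 280 to 517; the points of arrays 1 and 3 lie along a line (r = 0.96), with 4 green probes lowest on array 3.

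Across the 15 CHGB probes the ratios of arrays 1 and 3 ran together, with Pearson's r of 0.96 and Spearman's rho of 0.96, while r between any other 2 arrays was between -0.29 and 0.26. The SD among the probes was 0.288, 0.0883, 0.598 and 0.225 on arrays 1 to 4. Of 19 genes with at least 10 tested probes, CHGB ranked 3 by this SD on arrays 1 and 3 and 18 on array 2. The other 18 genes had a median correlation of arrays 1 and 3 of 0.623, and 0 of them reached that of CHGB. By the SD of the fitted ratios CHGB, at 0.208, ranked 5 of 19, against a median of 0.119 in the others. CHGB thus stood high, though not alone, in how far its probes differed.

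The CHGB ratios moved with the place of the spot on the array. Across the 15 probes the row of the spot and the ratio correlated at r = 0.741 on array 1 and 0.691 on array 3, but at 0.0289 on array 2 and 0.0393 on array 4. The 5 probes in rows 53 to 160 had a median fitted ratio of -0.60, with medians of -0.78 on array 1 and -1.61 on array 3. The 10 probes in rows 280 to 517 had a median of -0.16, with medians of -0.31 and -0.49 on these arrays. Other tested probes at least as bright as the dimmest CHGB probe were split in the same way. The 95 such probes in rows up to 160 had a median ratio of -0.35 on array 1 and -0.18 on array 3. The 201 in later rows had -0.23 and -0.13. The median fitted ratio was 0.017 for the 95 probes and 0.009 for the 201. Among the other members the ARF1 spot lies in row 113, that of RAB3A in row 68 and that of CHGA in row 128, and the tested RAB27A and SCG2 spots lie in rows 462, 483 and 501. The split by row was chosen after the values were seen, and the part of spot position, or of where a probe lies in the transcript, in the CHGB values was not tested.

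Over the 8 gilts the levels of the members were related unevenly. RAB3A correlated with SCG2 at r = 0.766, with CHGB at 0.759, with ARF1 at 0.737 and with RAB27A at 0.683. CHGA stood apart, with r of 0.112 to CHGB, 0.366 to RAB3A and -0.309 to RAB27A. These are descriptions over 8 levels, in which the 2 gilts of an array share a spot and a hybridisation. By the same measure over 1489 other named genes, the levels most like those of CHGA were MPDU1 (r = 0.989) and PLTP (0.969). Most like CHGB were RPL7 (0.966) and CGA (0.904), the common alpha subunit of the glycoprotein hormones. For SCG2 they were CEND1 (0.959) and PAFAH1B1 (0.954), and for RAB3A they were PRRT1 (0.990) and CBY1 (0.960). For RAB27A they were SMN1 (0.971) and VDAC2 (0.965), and for ARF1 NCF1 (0.953) and SIRT5 (0.926). The CGA probe had ratios of -1.19, 0.11, -1.04 and 1.06, the same order of signs over the arrays as the brightest CHGB probe, and a fitted ratio of -0.27 (limma adjusted p = 0.453).

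Among other genes of the same steps, 0 passed the test in any list, and the counts of lower and higher values are given against the median ratio of -0.02 over 1744 named genes, of which 981 were negative. Of 8 granins and granin-like proteins 4 were measured. Beside CHGA, CHGB and SCG2 this was GNAS, whose locus also encodes a granin-like protein, with a ratio of 0.08 ± 0.28 (SD, limma adjusted p = 0.717). Its 16 tested probes ran from -0.46 to 0.14, and 12 were negative. Of 9 genes of prohormone processing 3 were measured, of which 2 were negative and 1 positive, with a median of -0.23. Carboxypeptidase E, CPE, which trims basic residues from hormone precursors, had -0.33 ± 0.23 (SD over 3 arrays), and its 5 probes were all negative, from -0.38 to -0.29. The convertase PCSK1 had -0.23 ± 0.28, with probes from -0.23 to 0.20, and the convertase PCSK2 had 0.01 ± 0.94. Of 25 genes of the granule membrane and its acidification 3 were measured, all negative: ATP6V0E1 at -0.11 ± 0.12, CYB561 at -0.08 ± 0.32 and ATP6V1A at -0.03 ± 0.22. The spots of CYB561 and ATP6V1A lie in the dim area of array 4.

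Of 33 genes of the Rab3 and Rab27 GTPases and their partners 6 were measured, of which 5 were negative, with a median of -0.11. Without RAB3A and RAB27A, 3 of 4 were negative with a median of -0.02. MLPH, the melanophilin that links RAB27A to myosin, had a ratio of -0.19 ± 0.21 (SD, n = 4 arrays). GDI2, which takes Rab proteins off membranes, had -0.03 ± 0.14, the RAB27A effector MYRIP had -0.01 ± 0.10, and RABGGTA, a subunit of the enzyme that adds the lipid anchor of Rab proteins, had 0.07 ± 0.22. At these probes the 4 partners lay nearer 0 than RAB3A and RAB27A. This did not hold for the other GDI2 probe, at -0.36, while the other RABGGTA probe was at -0.06. Of 40 listed genes of the exocytosis machinery 0 were measured.

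Of 47 genes of the Arf GTPases, their coat proteins and partners 10 were measured, of which 6 were negative and 4 positive, with a median of -0.06. Without ARF1 the median of the other 9 was -0.02. Of these 10 genes 2 had an unadjusted p under 0.05, ARF1 and ARF4, both lower in pregnant gilts, against 13.8% of named genes in either direction and 8.43% lower. ARF4, an Arf of the Golgi, had ratios of -0.25, -0.30, -0.20 and -0.20, a fitted ratio of -0.23 ± 0.05 (SD, limma unadjusted p = 0.0298, adjusted p = 0.25), and its other probe -0.46. ARF6, the Arf of the plasma membrane, had -0.14 ± 0.08, and ARF5 had -0.10 ± 0.08, both negative on 4 of 4 arrays, while ARF2 had -0.02 ± 0.03. All 5 measured ARF genes were thus negative, ARF1 furthest from 0 and ARF2 nearest. The Arf exchange factor CYTH2 had -0.20 ± 0.31 with a spot in the dim area of array 4. ARL3, a GTPase of cilia, had 0.15 ± 0.21, and TMED10, a cargo receptor of the early secretory pathway, had 0.21 ± 0.16 over 3 arrays at its brightest probe and down to -0.56 at another.

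**Figure D4:**
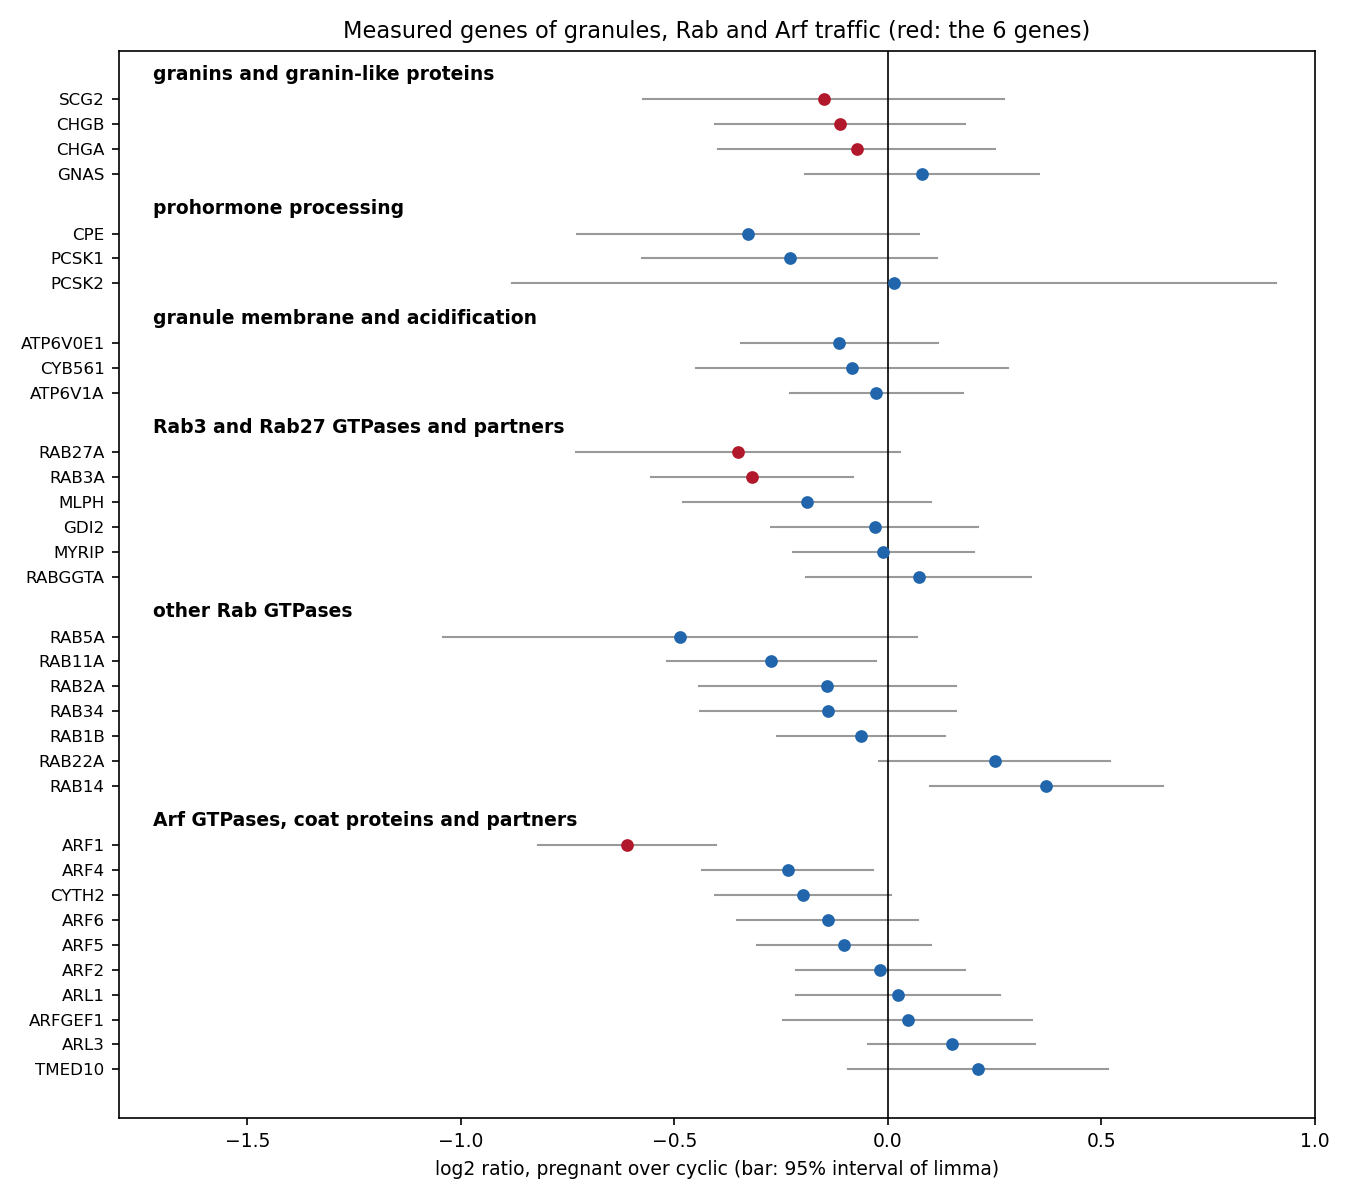
Fitted log2 ratio of pregnant over cyclic with its 95% limma interval (x axis) for each measured gene of the granule, Rab and Arf lists (y axis), with the 6 genes in red and the other genes in blue. ARF1 lies lowest at -0.61; the intervals of ARF1, ARF4, RAB3A and RAB11A lie below 0 and that of RAB14 above, before adjustment for the number of probes.

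The hormones that the granules store were measured for 7 of 7 genes, of which 6 were negative, with a median of -0.20. Of named genes 56.2% were negative. Among the 6, GH1 at -0.008 ± 2.05 and TSHB at -0.015 ± 4.66 were near 0 with a wide spread over arrays. POMC was positive at 0.16 ± 0.64 at its brightest probe, while its 3 probes ran from -0.26 to 0.16 and 2 were negative. PRL, the prolactin gene, had ratios of -1.75, 0.01, -1.42 and -0.41, lowest on arrays 1 and 3 like those of ARF1 and RAB3A, with a fitted ratio of -0.89 (limma adjusted p = 0.235). No marker of other cells passed the test. All 3 measured of 4 proliferation genes had negative ratios with a limma unadjusted p of 0.0646 to 0.110, CDK1 at -0.77, TOP2A at -0.77 and CCNB1 at -0.72. In this order they were at -1.96, -2.17 and -1.77 on array 3 and at -0.85, -0.90 and -0.92 on array 2. On arrays 1 and 4 the 3 genes lay between -0.22 and 0.07. Their summed log2 level ran from 8.45 to 8.93 in pregnant gilts and from 8.84 to 10.51 in cyclic gilts. Of 9 stromal markers 4 were measured, and SPARC, ACTA2 and FBN1 had a limma unadjusted p under 0.05 and lower values in pregnant gilts. The same held for 8.43% of named genes, and for 13.8% in either direction. The stromal marker DCN was at 0.22 ± 0.54. The summed level of the 3 stromal genes with a ratio on 4 arrays, without SPARC, ran from 12.17 to 12.56 in pregnant gilts and from 12.06 to 12.67 in cyclic gilts. The 3 endothelial markers measured of 7 summed to 10.82 to 11.25 in pregnant gilts and 10.91 to 11.38 in cyclic gilts.

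The gonadotropin subunit FSHB had -1.91 ± 1.52 over 3 arrays (limma unadjusted p = 0.0510). Among 11 endocrine markers 7 were negative and 4 positive, where 56.2% of named genes were negative. Before adjustment 8.43% of named genes had a limma p under 0.05 with a lower and 5.39% with a higher value in pregnant gilts. Of the 11 markers 1 was lower and 2 were higher by this measure. The higher ones were the pituitary transcription factor POU1F1 at 0.46 ± 0.23, positive on 4 of 4 arrays, and the thyrotropin-releasing hormone receptor TRHR at 0.30 ± 0.28, with a spot in the dim area of array 4. The gonadotropin-releasing hormone receptor GNRHR had 0.43 ± 0.43 (limma unadjusted p = 0.0605), also positive on 4 of 4 arrays. The 10 endocrine markers measured on 4 arrays summed to 19.04 to 19.85 in pregnant gilts and 19.22 to 20.12 in cyclic gilts. Of 9 markers of the posterior lobe and neural tissue 3 were measured, OXT at -0.02, AQP4 at 0.27 and MBP at -0.20, and their summed level over genes measured on 4 arrays ran from 12.30 to 12.95 in pregnant gilts and from 12.49 to 13.01 in cyclic gilts. Of 6 folliculostellate and stem cell markers 4 were measured, 3 of them negative. The sum of the 2 genes with a ratio on 4 arrays ran from 10.35 to 11.33 in pregnant gilts and from 10.51 to 11.57 in cyclic gilts. Of 6 myeloid markers 4 were measured, 3 of them negative. The 3 myeloid genes with a ratio on 4 arrays summed to 9.49 to 11.12 in pregnant gilts and 9.43 to 10.55 in cyclic gilts. Of 5 lymphocyte markers 2 were measured, with sums of 9.12 to 9.44 in pregnant gilts and 8.75 to 9.44 in cyclic gilts, and 0 of 3 erythrocyte markers were measured. The intermediate lobe list was measured by PCSK2 alone, at 6.46 to 8.65 in pregnant gilts and 6.46 to 8.42 in cyclic gilts. The part of any of these cells in the values of the 6 genes was not tested.

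**Figure D5:**
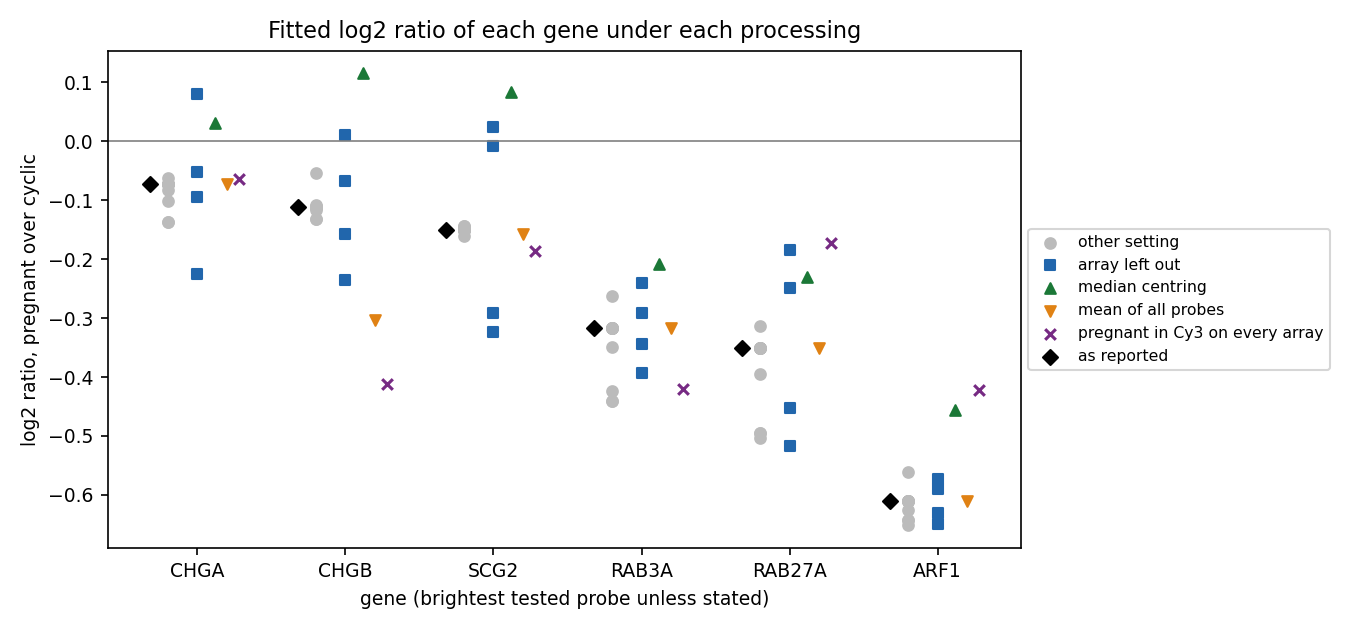
Fitted log2 ratio of pregnant over cyclic (y axis) of each gene (x axis) as reported and under each other processing. RAB3A, RAB27A and ARF1 lie below 0 at every point, with ARF1 between -0.65 and -0.42, while CHGA, CHGB and SCG2 lie above 0 with median centring and in 1 fit with an array left out.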

How the data were processed

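The deposited scanner files give spot and background intensity in Cy3 and Cy5, read by Agilent Feature Extraction 10.7.3.1 per the file headers. Per the file headers they also hold outlier and detection flags and a log10 ratio of the 2 dyes. The deposited series table holds log2 ratios. Against each array's processed signals its columns had slopes of -1, 1, -1 and 1 over 43603 probes, so its direction follows the sample labels. Its column medians of 0.074, -0.076, -0.18 and -0.17 show that it is not centred, and its software was not given in the sources used here. All 4 arrays share 1 slide and 1 scan.

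Median signals were background-corrected by normexp (offset 50) and loess-normalised within arrays, with control spots at weight 0. Outlier spots were left out and spots of a probe averaged. Levels are log2 intensities after Aquantile normalisation, and levels of different probes cannot be compared. Testing required signal well above background in the channels of 1 group or more on 4 arrays, and ratios on 3 or more arrays. This left 21627 probes, 19880 of them with 4 ratios. Limma 3.58.1 in R 4.3.3 fitted the group difference with a dye term, and Benjamini-Hochberg adjustment ran over every tested probe. A fitted ratio stands before a plus-minus sign and the SD over arrays after it. The fit was tested on simulated data. The number of arrays limits the precision.

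Each gene stands by its brightest tested probe. The text names all members and their probes, all measured granins, from other lists up to 4 genes of smallest unadjusted p and the measured relatives of a member, and for each member the 2 genes whose levels correlate best. Genes of the hormone and marker lists beyond this, and the division of CHGB probes by row, were picked after their values were seen. The members and lists were chosen with earlier results of these data known. The dim area of array 4 is made of tiles of 10 rows by 5 columns whose bright spots lie at least 2 log2 units under the array's median relative to the other arrays. Summed marker levels are log2 of summed intensities of genes with a ratio on 4 arrays. The alternatives were other background, normalisation, filter, model and dye settings, each array left out, and the deposited values.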

Additional observations from a re-analysis of the deposited data

Results flagged for a closer look

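Of 63 sets of 4 values of the member probes (ratios, pregnant levels and cyclic levels), 4 had a value whose gap to the nearest other, over the whole range, was above Dixon's 95% critical value. Chance flags about 1 in 20 such sets, here 3.15. All 4 were sets of CHGB probes, which make up 15 of the 21 tested member probes. The flagged pregnant and cyclic levels of A_72_P572829 come from the same spot, so the sets are not independent.

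Probe A_72_P572829 read 15.43 in the pregnant gilt and 15.54 in the cyclic gilt of array 4, far below the other gilts in both groups, and this spot lies in the dim area of that array; its ratio there, -0.11, was within the range of the other arrays. Probe A_72_P582177 read 16.62 in the pregnant gilt of array 4, above the other pregnant gilts at 16.05 to 16.09. Probe A_72_P578128 had a ratio of -0.27 on array 2, below the other arrays at -0.12 to -0.11.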

How the results depend on the processing

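With median centring in place of loess the fitted ratio was 0.030 for CHGA, 0.12 for CHGB and 0.083 for SCG2. Then 11 member probes and 8 CHGB probes were negative, 5 member probes had an unadjusted p under 0.05, and 2555 of all probes did. The counts of member probes were alternatives added after seeing the data. With pregnant RNA in Cy3 on every array, 1012 of all probes (4.68%) and 2 member probes had an unadjusted p under 0.05. Without the dye term 2 member probes and 3097 of all probes (14.3%) did, and 2 of all probes passed after adjustment; 1 passed without background correction and 1 with array weights. In the separate-channel fit 1046 probes passed after adjustment, 5 of them member probes (ARF1, at -0.61, and 4 CHGB probes), and 13 member probes and 5425 of all 19880 probes (27.3%) had an unadjusted p under 0.05.

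With each array left out in turn, 0 to 3381 probes passed after adjustment and 895 to 7061 had an unadjusted p under 0.05. The highest counts came without array 1; without array 3 there were 4 after adjustment. Of member probes 0 to 7 passed after adjustment, the 7 without array 1, and 2 to 9 had an unadjusted p under 0.05, the 2 without array 2; 19 to 21 member probes and 14 to 15 CHGB probes were negative. The ratio ran from -0.23 to 0.079 for CHGA, -0.23 to 0.010 for CHGB, -0.32 to 0.024 for SCG2, -0.39 to -0.24 for RAB3A, -0.52 to -0.18 for RAB27A and -0.65 to -0.57 for ARF1. CHGA and CHGB were above 0 without array 2 and SCG2 without array 1. RAB27A (-0.52) and ARF1 (-0.63) passed after adjustment without array 1. The cause of these differences was not tested. Every ratio pairs 1 pregnant with 1 cyclic gilt of the same array, so the fits on ratios are paired by array.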

Other observations

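Other Rab GTPases, which direct further steps of membrane traffic, were measured for 7 of 26 listed genes, of which 5 were negative, with a median of -0.14. RAB14, a GTPase of the Golgi and endosomes, had ratios of 0.57, 0.22, 0.85 and -0.14 and a fitted ratio of 0.37 (limma unadjusted p = 0.0175, adjusted p = 0.237). RAB11A, a GTPase of recycling endosomes, had -0.36, -0.10, -0.68 and 0.04 and a fitted ratio of -0.27 (limma unadjusted p = 0.0353, adjusted p = 0.257). RAB14 thus had the opposite sign to RAB11A and RAB3A on all 4 arrays. RAB22A had 0.25 ± 0.19, with 1 of 2 probes negative, and RAB5A, the GTPase of early endosomes, had -0.49 ± 0.42 over 3 arrays, with all 4 probes negative. None of these passed after adjustment, and no test compared these genes with the 6 members.

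Among the other genes with at least 10 tested probes, ZFAND5 was most like CHGB in how its probes differed. The SD among its 11 probes was 0.400 on array 1 and 0.628 on array 3, and its arrays 1 and 3 correlated at r = 0.949 across probes. RPLP0, with 13 probes, had r = 0.935 but an SD of 0.124 on array 1 and 0.199 on array 3. These genes were picked after their values were seen.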
